A study of Mus musculus with 9 samples.

Results

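The genes described are 10 angiogenic factors and receptors, found by their Ensembl identifiers among the 34866 genes of the deposited tables. They are the ligands Vegfa, Vegfb, Vegfc and Pgf, the peptide hormone precursor Adm, the receptor kinases Flt1 and Kdr, the co-receptors Nrp1 and Nrp2, and the secreted inhibitor Thbs1. Their mRNA was measured in 9 libraries of cultured primary mouse macrophages, grown in medium that contained L929-conditioned medium. The 3 libraries of the standard oxygen group came from cells cultured for 7 days in standard oxygen. In the acute hypoxia group, 3 libraries came from cells cultured in standard oxygen and then exposed to 1% oxygen for 3 hours, and in the chronic hypoxia group 3 libraries came from cells held in 1% oxygen for 7 days. The labels name no strain, sex, age or genetic change.

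Values are in TPM, a length-corrected share of the transcripts of a library, so levels of different genes can be set side by side. Each mean is given with its SD over 3 libraries. The depth of the libraries is unknown, since TPM keeps no read counts. In bulk RNA of this kind, fewer cells that express a gene and less RNA per cell cannot be told apart. The samples also carry 3 codes, here called X, Y and Z, made of digits that descriptions share across the groups. Code X is on replicate 1 of each group, code Y is on standard replicate 3, acute replicate 2 and chronic replicate 2, and code Z is on standard replicate 2, acute replicate 3 and chronic replicate 3. What the codes stand for is not given in the sources used here.

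All 8 macrophage markers were present in every library, with summed levels of 56607 to 74792 TPM. Markers of fibroblasts (7 genes) and dendritic cells (4 genes) stayed below 1 TPM throughout, as did 5 of 6 lymphocyte markers. Endothelial cells are the main carriers of VEGF receptors in the body. Of 11 endothelial markers, 9 stayed below 1 TPM in every library, including Cdh5, Tek and Tie1, and Cldn5, Emcn, Robo4 and Sox17 were at 0 in all 9. Vwf lay at 8.98 to 35.6 TPM and Egfl7 at most 1.74 TPM, and the summed endothelial markers ranged from 14.2 to 27 TPM in standard oxygen, 10.8 to 37.7 in the acute group and 12 to 19.9 in chronic hypoxia. Of 7 neutrophil markers, Ly6g, Mpo, Elane and S100a9 stayed below 1 TPM, Ltf reached at most 1.49 TPM and Camp 2.03 TPM. The summed neutrophil markers, nearly all S100a8, were lower in the chronic group (260 to 584 TPM) than in the standard (895 to 1595 TPM) and acute groups (937 to 1909 TPM). Without S100a8 the list was split and low. Camp had a mean of 1.82 TPM in the chronic and 0.832 TPM in the standard group, and Ly6g 0.323 and 0.0577 TPM. The chronic mean was below the standard mean for Mpo (0.0312 and 0.0385 TPM), Elane (0.0817 and 0.0844), S100a9 (0 and 0.0772) and Ltf (0 and 0.0715). The part of S100a8 in the results below was not tested. The 3 libraries of code Z stood apart. The first principal component (36.9% of the variance over 11065 genes) separated them from the other 6 libraries, and the second (25.4%) separated chronic hypoxia from the rest. Under code Z the macrophage marker Mertk lay between 2.21 and 3.37 TPM, while all remaining libraries held 21.8 to 33.3 TPM. No other macrophage marker showed a drop of this size. In standard oxygen the code Z library was the highest for Csf1r (513 TPM), Itgam (625), Cd14 (1379) and Fcgr1 (63.2). It was the lowest there for Adgre1 (488 TPM), Cd68 (1179) and Lyz2 (58156). Results of the members and of the related genes named below that turned on the code Z libraries are therefore also given without them. These fits set 2 libraries against 2. Code Z was singled out in these same libraries, so a call made without it is not separate support for a result.

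VEGF-A, made by many cells under low oxygen, is the main growth signal for new blood vessels. Its gene is a classic target of the hypoxia-inducible factors (HIFs), transcription factors that are stabilised when oxygen is scarce, and macrophages are a known source of the protein in poorly perfused tissue. VEGF-A binds VEGFR1 (the product of Flt1), which binds tightly but signals weakly, and VEGFR2 (Kdr), which carries most of the endothelial response; VEGF-B and placental growth factor (Pgf) bind VEGFR1, while VEGF-C acts mainly on lymphatic vessels. Neuropilins 1 and 2 hold VEGF and class 3 semaphorins at the cell surface as co-receptors. Adrenomedullin (Adm) is a vasodilator peptide, likewise a known HIF target, and thrombospondin 1 (Thbs1) is a matrix protein that restrains vessel growth.

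The 4 genes that passed a test between oxygen conditions, without a block or with the sample code as a block, were Vegfa, Adm, Flt1 and Nrp1. Their 250 bases upstream of the RefSeq transcription start (GRCm38.p6, printed 5′ to 3′ on the gene's own strand) are shown because they are the regions in which the HIF core letters were searched. Capitals mark ACGTG or GCGTG on either strand, so that CACGT or CACGC marks a match on the opposite strand; the 2 motifs were searched without gaps.
Vegfa, chr17:46032378-46032627, minus strand: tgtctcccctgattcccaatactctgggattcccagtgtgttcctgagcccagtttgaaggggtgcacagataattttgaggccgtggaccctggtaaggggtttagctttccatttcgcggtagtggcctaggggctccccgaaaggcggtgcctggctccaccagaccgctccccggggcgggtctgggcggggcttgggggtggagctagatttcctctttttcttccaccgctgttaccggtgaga
Adm, chr7:110627407-110627656, plus strand: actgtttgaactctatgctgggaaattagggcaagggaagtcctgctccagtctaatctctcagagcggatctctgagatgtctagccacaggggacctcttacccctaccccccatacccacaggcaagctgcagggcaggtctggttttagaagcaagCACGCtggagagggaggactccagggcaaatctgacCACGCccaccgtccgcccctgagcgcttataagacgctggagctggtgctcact
Flt1, chr5:147726012-147726261, minus strand: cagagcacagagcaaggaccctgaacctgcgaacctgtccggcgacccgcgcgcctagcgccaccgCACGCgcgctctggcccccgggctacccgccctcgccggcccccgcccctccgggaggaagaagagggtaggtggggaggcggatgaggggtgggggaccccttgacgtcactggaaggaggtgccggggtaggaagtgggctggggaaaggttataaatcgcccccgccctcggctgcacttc
Nrp1, chr8:128358823-128359072, plus strand: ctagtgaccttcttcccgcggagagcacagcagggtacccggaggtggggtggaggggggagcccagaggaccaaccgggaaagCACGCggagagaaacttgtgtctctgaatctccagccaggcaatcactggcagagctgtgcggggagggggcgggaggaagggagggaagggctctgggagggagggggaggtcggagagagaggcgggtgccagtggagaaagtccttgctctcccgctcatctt
The Adm window held 2 matches, at bases -90 and -54 from the start, both GCGTG on the opposite strand. The Flt1 window held 1 such match at -184 and the Nrp1 window 1 at -166. The window at the main Vegfa start held none; the window of a second RefSeq start of Vegfa, at chr17:46025164-46025413 inside the gene, held GCGTG at -218 and ACGTG at -211 and shares 67 bases with coding sequence. None of the 4 printed windows overlaps an exon in GENCODE M21, although the Nrp1 window lies inside the bounds of the gene there, which start at 128358604. Vegfb, Nrp2 and Kdr had 2 matches each. Such matches are common: 38.6% of 32851 RefSeq windows of this length held at least 1 of the 2 motifs (16.6% ACGTG, 28.2% GCGTG). The promoter table matched 9 of the 10 genes and lacked Thbs1. No binding was measured here, so a match is a description of letters only.

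Of the 10 genes, 7 passed the filter of a mean of 1 TPM over the 6 libraries of a comparison and were tested: Vegfa, Vegfb, Adm, Flt1, Nrp1, Nrp2 and Thbs1. Vegfc, Pgf and Kdr did not reach the filter in any of the 3 comparisons. In standard oxygen the order of mean levels was Nrp2 (178 ± 24.5 TPM), Vegfa (70.6 ± 10.8), Nrp1 (45.3 ± 23.2), Vegfb (21.7 ± 3.57), Thbs1 (19.2 ± 4.82), Flt1 (5.95 ± 2.61) and Adm (0.249 ± 0.0709) (SD, n = 3). In that order the ranges of Vegfa and Nrp1, of Nrp1 and Vegfb, and of Vegfb and Thbs1 overlapped, while Nrp2 lay above all others in each library. In acute hypoxia Vegfa, at 190 ± 118 TPM, and Nrp2, at 158 ± 7.6 TPM, overlapped. In chronic hypoxia Nrp2 was at 181 ± 38 TPM, Vegfa at 163 ± 42.7 TPM and Nrp1 at 90.5 ± 60.4 TPM (SD, n = 3), and the ranges of these neighbours overlapped as well.

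**Figure D1:**
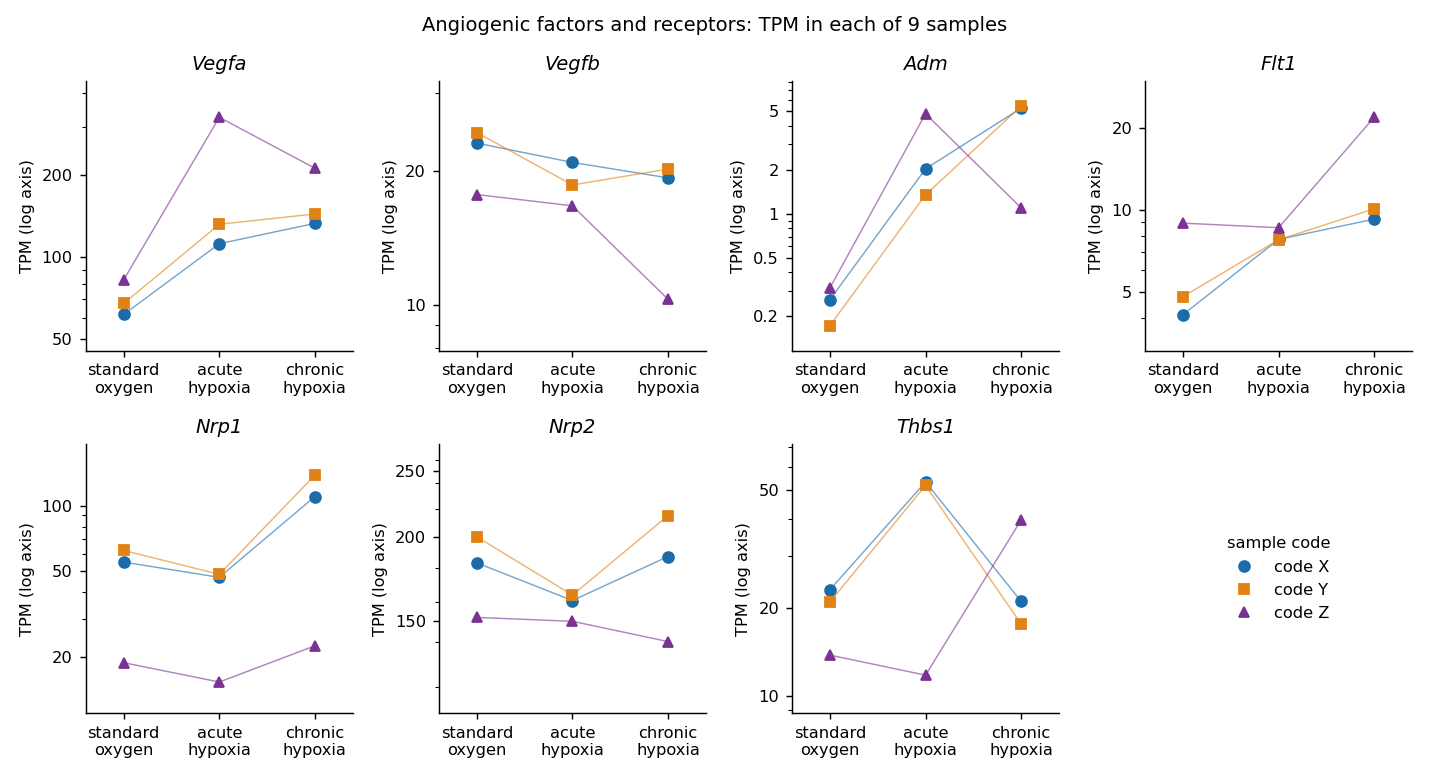
TPM of the 7 tested members in each of the 9 libraries (points, log axes) by oxygen condition; colours, symbols and thin lines mark the sample code. The 3 hypoxic libraries of each kind lie above the standard oxygen libraries for Vegfa and Adm, and for Flt1 in chronic hypoxia, while the code Z libraries of Nrp1 lie low in every condition. Of all genes tested, 7.63% in acute and 24.2% in chronic hypoxia had the hypoxic libraries wholly above.

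Vegfa, the vascular endothelial growth factor A gene (ENSMUSG00000023951, chr17:46016993-46032369), was at 61.6, 82.6 and 67.6 TPM in standard oxygen replicates 1 to 3, at 112, 132 and 326 TPM in the acute group and at 133, 144 and 212 TPM in chronic hypoxia. Every hypoxic library was above every standard oxygen library, and the highest library of each hypoxic group was that of code Z. The mean was 2.69 times the standard oxygen mean in the acute group and 2.31 times in chronic hypoxia. On the log2(TPM + 1) scale, on which all fold changes here are given and which understates those of low genes, chronic hypoxia exceeded standard oxygen by 1.18 (SE 0.204), with a Benjamini-Hochberg adjusted p of 0.0425 over 11067 genes in limma, and Vegfa rose in this comparison. Vegfa was the 1 member of the 7 tested that passed without a block, where 2.69% of all genes tested passed in either direction. By sample code, the chronic level was 2.15, 2.14 and 2.56 times the standard oxygen level for X, Y and Z. Adjusted p ranged from 0.00309 to 0.182 over 17 other settings, 10 of which kept the call; it was lost without standard replicate 1 (adjusted p = 0.182) or 3 (0.176) and without chronic replicate 1 (0.106) or 2 (0.163), and kept without the code Z libraries (1.09, adjusted p = 0.00309).

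In acute hypoxia Vegfa differed from standard oxygen by a log2 fold change of 1.26 (SE 0.391), which did not pass in limma (adjusted p = 0.511 over 10987 genes, and 0.132 with the sample code as a block). With that block in 1 fit over all 9 libraries the SE was 0.203 and the adjusted p 0.0341, so that the call depended on the fit. None of the 7 members tested passed in this comparison, against a background of 0.0273% of all genes (3 genes). By code the ratios were 1.82, 1.96 and 3.94 for X, Y and Z, so the acute library of code Z departed most. Without the code Z libraries the log2 fold change was 0.91 (SE 0.106) and passed in limma (adjusted p = 0.0263), where 2.95% of genes passed. The groups did not overlap and the acute values were higher, which held for 7.63% of the genes tested. Between chronic and acute hypoxia Vegfa differed by -0.08 (SE 0.412, adjusted p = 0.931), with ratios of 1.18, 1.09 and 0.65 for X, Y and Z.

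Vegfb, whose product binds VEGFR1, was lower in hypoxia, but within its spread. Its levels were 23.1, 17.7 and 24.4 TPM in standard oxygen, 20.9, 18.6 and 16.7 TPM in the acute group and 19.3, 20.2 and 10.3 TPM in chronic hypoxia. The groups overlapped, and the lowest value was chronic replicate 3, of code Z. Within each code both hypoxic libraries were lower than the standard oxygen library, by ratios of 0.763 to 0.945 in acute and 0.581 to 0.834 in chronic hypoxia; a lower value in all 3 codes held for 16.9% and 12.6% of genes. Neither difference passed in limma: -0.20 (SE 0.153, adjusted p = 0.969) in acute and -0.41 (SE 0.269, adjusted p = 0.407) in chronic hypoxia. With the sample code as a block and median-of-ratios rescaling together, the chronic difference was -0.58 with an adjusted p of 0.0478.

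The ratio of Vegfa to Vegfb within a library, a measure picked after the levels were seen, combined both differences. It was 2.66, 4.68 and 2.77 in standard oxygen, 5.37, 7.1 and 19.5 in the acute group and 6.88, 7.15 and 20.6 in chronic hypoxia. Each hypoxic library exceeded each standard oxygen library, with p = 0.1 in a two-sided exact permutation test for either comparison, the smallest value that 3 against 3 can give (0.4 after Benjamini-Hochberg adjustment over 12 ratio tests). Vegfa held 72.5 to 81.9% of the summed TPM of the 4 VEGF ligands in standard oxygen, 84.1 to 94.8% in the acute group and 87.2 to 94.6% in chronic hypoxia. The remaining ligands were low in every library. Pgf lay between 0.0527 and 0.961 TPM, with means of 0.268 ± 0.213 in standard oxygen, 0.621 ± 0.32 in the acute group and 0.145 ± 0.0959 in chronic hypoxia (SD, n = 3). Vegfc was listed at 0 in 3 libraries and reached 1.55 TPM in chronic replicate 3 alone, all others being at 0.246 TPM or less.

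Adm, the adrenomedullin precursor (ENSMUSG00000030790, chr7:110627661-110629820), was at 0.26, 0.313 and 0.173 TPM in standard oxygen. It was at 2.03, 1.35 and 4.82 TPM in the acute group and at 5.26, 5.43 and 1.1 TPM in chronic hypoxia. All 6 hypoxic libraries were above all 3 standard oxygen libraries, and the code Z library was the highest of the acute group and the lowest of the chronic group. A hypoxic group wholly above standard oxygen held for 7.63% of genes tested in acute and 24.2% in chronic hypoxia. The ratio of means to standard oxygen was 11 in acute and 15.8 in chronic hypoxia. Adm entered the tests through its hypoxic libraries, since its standard oxygen mean lay under the filter, so its passing the filter carries no information. The log2 fold change was 1.81 (SE 0.458) in chronic hypoxia, with an adjusted p of 0.0924 in limma without a block and 0.0439 with the sample code as a block, under which Adm rose. Adding rescaling to that block gave 0.0624, leaving out chronic replicate 3 alone gave 2.35 with an adjusted p of 0.0121, and leaving out all code Z libraries gave 2.38 (adjusted p = 0.00276).

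For acute hypoxia the Adm log2 fold change of 1.47 (SE 0.363) did not pass (adjusted p = 0.317, and 0.138 with the code block in limma, where 0.71% of genes passed); without the code Z libraries Adm did not reach the filter. The acute levels were 7.8, 7.8 and 15.4 times those in standard oxygen for codes X, Y and Z, and the chronic levels 20.2, 31.4 and 3.51 times. Chronic against acute hypoxia gave 0.34 (adjusted p = 0.761 in limma) with all libraries. Codes X and Y were higher in chronic hypoxia (ratios 2.59 and 4.02) and code Z was lower (0.228). Without the code Z libraries the difference was 1.25 and passed (adjusted p = 0.0173).

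Flt1, which encodes VEGFR1, the VEGF receptor kinase that monocytes and macrophages are known to carry (ENSMUSG00000029648, chr5:147561604-147726011), was at 4.11, 8.94 and 4.79 TPM in standard oxygen. It was at 7.79, 7.76 and 8.6 TPM in the acute group and at 9.25, 10.1 and 22 TPM in chronic hypoxia. Each chronic library was above each library of the other groups, and the code Z library was the highest within each group. The chronic mean of 13.8 ± 7.16 TPM was 2.32 times the standard oxygen mean. Against standard oxygen the chronic log2 fold change was 1.05 (SE 0.385, adjusted p = 0.177 in limma). With the sample code as a block the SE was 0.105 and the adjusted p 0.0113, so that Flt1 rose under that fit, and without the code Z libraries the change was 0.97 with an adjusted p of 0.0114. The ratios for codes X, Y and Z were 2.25, 2.1 and 2.47.

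With the sample code as a block, 3 of the 7 members tested (Adm, Vegfa and Flt1) rose in chronic hypoxia against standard oxygen and none fell, where 18.4% of all genes tested passed in either direction. All 3 were also among genes whose chronic and standard libraries did not overlap with chronic higher, which held for 24.2% of genes tested. Since Adm could enter the tests only through its hypoxic libraries, the counts without it are 2 of 6 (Vegfa and Flt1). With rescaling added to the block, Vegfa and Flt1 rose, Vegfb fell and Adm did not pass, where 1270 of 11057 genes passed. The median log2 fold change in this comparison was 0.58 over those 6 members and 0.79 with Adm, and that of all genes was 0.16. In acute hypoxia it was 0.14, or 0.44 with Adm, against 0.01 for all genes, and for chronic against acute hypoxia 0.04, or 0.17 with Adm, against 0.14. Vegfa ranked 244th from the top of 11067 genes by log2 fold change in chronic hypoxia and 77th of 10987 in acute hypoxia.

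Flt1 in acute hypoxia overlapped standard oxygen (0.44, SE 0.256, adjusted p = 0.874 in limma): codes X and Y were at 1.9 and 1.62 times their standard level and code Z at 0.963 times. Chronic against acute hypoxia gave 0.61 (SE 0.308, adjusted p = 0.312, and 0.12 with the code block). Those groups did not overlap and chronic was higher, as for 22.3% of genes tested. Kdr, which encodes VEGFR2, the main endothelial signalling receptor for VEGF-A, lay between 0 and 0.0808 TPM in all 9 libraries. Vegfa per Flt1, a ratio of 2 genes that both were higher in chronic hypoxia, was 15, 9.25 and 14.1 in standard oxygen and 14.3, 14.3 and 9.61 in chronic hypoxia. In acute hypoxia it was 14.4, 17 and 37.9, the last in the code Z library.

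**Figure D2:**
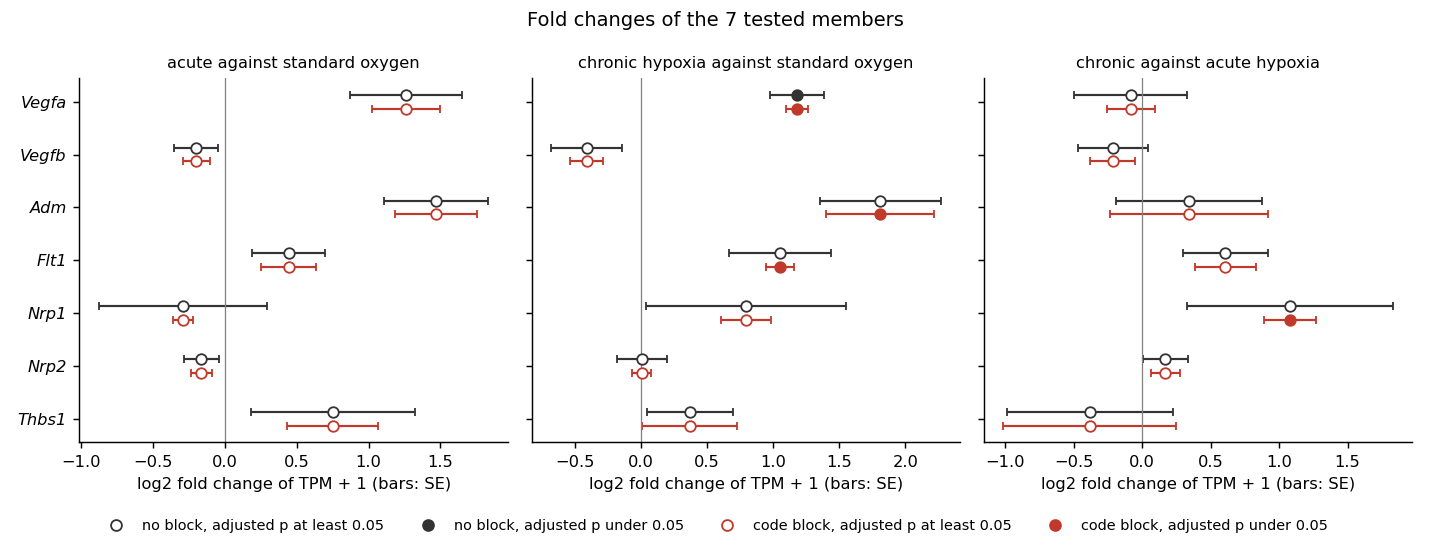
Log2 fold changes of the 7 tested members on the log2(TPM + 1) scale in each comparison, with bars for the SE, without a block and with the sample code as a block; filled points have an adjusted p under 0.05. For Vegfa, chronic hypoxia exceeded standard oxygen by 1.18, and for Nrp1 chronic exceeded acute hypoxia by 1.08; for Nrp2 the chronic difference from standard oxygen was 0.00.

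Nrp1 encodes neuropilin 1, a co-receptor that binds VEGF-A and class 3 semaphorins (ENSMUSG00000025810, chr8:128358604-128503363). It was at 54.9, 18.9 and 62.1 TPM in standard oxygen, at 46.7, 48.2 and 15.4 TPM in the acute group and at 110, 138 and 22.6 TPM in chronic hypoxia. The code Z library was the lowest in each group and all groups overlapped. Among the other 6 libraries the chronic values were above, and the acute values below, those of standard oxygen. Within codes the pattern was uniform in direction: acute hypoxia was lower than standard oxygen in all 3 (ratios 0.85, 0.776 and 0.816 for X, Y and Z) and chronic hypoxia was higher in all 3 (2.01, 2.23 and 1.2). A lower value in 3 of 3 codes in acute hypoxia held for 16.9% of genes, and a higher value in 3 of 3 in chronic hypoxia for 46.9%.

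Without a block no Nrp1 difference passed in limma: -0.29 (SE 0.585, adjusted p = 1) in acute and 0.79 (SE 0.755, adjusted p = 0.57) in chronic hypoxia against standard oxygen, and 1.08 (SE 0.752, adjusted p = 0.456) for chronic against acute hypoxia. Leaving out 1 library moved the chronic difference from standard oxygen between 0.27 (without standard replicate 2) and 1.59 (without chronic replicate 3), and the chronic against acute difference between 0.56 (without acute replicate 3) and 1.88 (without chronic replicate 3); these 3 libraries are those of code Z. None of the 7 members passed in the last comparison, against 0.695% of genes. With the sample code as a block the chronic against acute difference had an SE of 0.191 and an adjusted p of 0.026, so that Nrp1 was higher in chronic than in acute hypoxia, the 1 member of 7 to pass there, where 15.5% of all genes did. Under the same block the chronic difference from standard oxygen had an adjusted p of 0.0501 and the acute one 0.196. Rescaling reduced the chronic against acute difference to 0.93 (adjusted p = 0.0446). Leaving out the code Z libraries gave 1.07 (adjusted p = 0.00936) against standard oxygen and 1.36 (adjusted p = 0.00579) against acute hypoxia.

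Nrp2, the second neuropilin and a co-receptor for VEGF-C (ENSMUSG00000025969, chr1:62703285-62818695), was the most abundant member in standard oxygen. Its levels were 183, 152 and 200 TPM in standard oxygen, 161, 164 and 150 TPM in the acute group and 187, 215 and 140 TPM in chronic hypoxia. All groups overlapped and no difference passed in limma: -0.16 (adjusted p = 0.959) in acute hypoxia, 0.00 (SE 0.187, adjusted p = 0.991) in chronic hypoxia and 0.17 (adjusted p = 0.606) between them. After rescaling the chronic difference from standard oxygen was -0.18. Nrp2 per Nrp1 was 3.33, 8.03 and 3.22 in standard oxygen, 3.45, 3.41 and 9.71 in the acute group and 1.69, 1.55 and 6.18 in chronic hypoxia. It was lower in chronic hypoxia than in standard oxygen for each code (0.508, 0.483 and 0.77 times), but the groups overlapped and the exact permutation p was 0.3, 0.514 after adjustment over the 12 ratio tests.

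**Figure D3:**
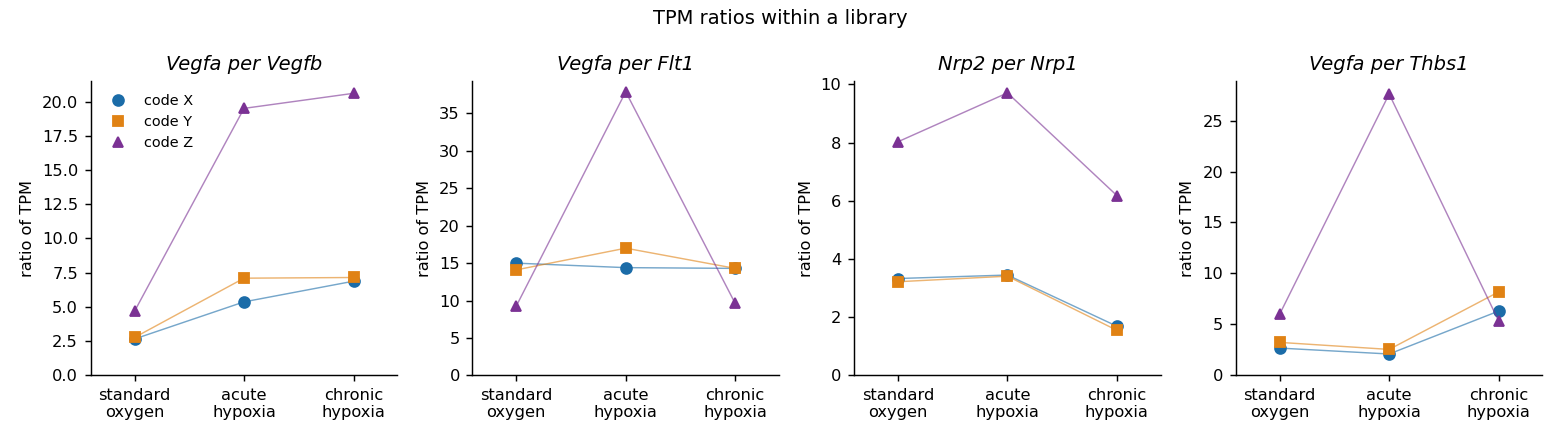
Ratios of the TPM of 2 members within each of the 9 libraries, on linear axes from 0, by oxygen condition; symbols and lines mark the sample code. Vegfa per Vegfb lies between 5.37 and 20.6 in the hypoxic libraries and between 2.66 and 4.68 in standard oxygen, while Nrp2 per Nrp1 shows the code Z libraries above the others in each group.

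Thbs1, the gene of thrombospondin 1, an inhibitor of vessel growth that also activates latent TGF-beta (ENSMUSG00000040152, chr2:118111876-118127133), differed between code Z and the other codes. It was at 23, 13.8 and 20.9 TPM in standard oxygen, at 53.3, 51.9 and 11.8 TPM in the acute group and at 21, 17.6 and 39.6 TPM in chronic hypoxia. The acute libraries of codes X and Y were above, and that of code Z below, every standard oxygen library. In chronic hypoxia the code Z library was the highest and the other 2 were at the level of standard oxygen. No difference passed in limma with all libraries: 0.75 (SE 0.57, adjusted p = 0.961) in acute hypoxia, 0.37 (SE 0.327, adjusted p = 0.543) in chronic hypoxia and -0.38 (SE 0.605, adjusted p = 0.765) between them.

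By code, acute Thbs1 was 2.32, 2.48 and 0.858 times the standard oxygen level for X, Y and Z, and chronic Thbs1 was 0.915, 0.844 and 2.87 times. With all libraries and the code block, the acute difference had an adjusted p of 0.38 in limma. Code Z ran against codes X and Y in both conditions, so a fit without it leaves out the libraries that disagree. Without the code Z libraries Thbs1 was higher in acute hypoxia than in standard oxygen by 1.23 (SE 0.0822, adjusted p = 0.00826 in limma). It was lower in chronic than in acute hypoxia by 1.41, written as a log2 fold change of -1.41 (SE 0.109, adjusted p = 0.00464). The chronic difference from standard oxygen was then -0.18 (adjusted p = 0.338). Without these libraries, 2 of 6 members tested passed in acute hypoxia (Thbs1 and Vegfa, both higher). In chronic hypoxia against standard oxygen 4 of 7 passed (Adm, Vegfa, Nrp1 and Flt1, all higher). Adm could enter that test only through its hypoxic libraries, and without it the count is 3 of 6. Between chronic and acute hypoxia 3 of 7 passed (Nrp1 and Adm higher, Thbs1 lower). The shares of all genes tested that passed were 2.95%, 21.1% and 16.3%. Each of these fits rests on 2 libraries a group, and Vegfa per Thbs1 shows the difference of the code Z library plainly: 2.1 and 2.55 in acute hypoxia for X and Y, but 27.6 for Z.

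The related genes were read from lists of 70 genes in 6 groups. In acute hypoxia 27 were tested and none passed in limma, with or without the sample code as a block (5 and 10 of them had an unadjusted p under 0.05). Without the code Z libraries 26 were tested and 3 rose, Angptl4, Sdc4 and Itgav, where 2.95% of all genes passed, and 2 passed with the code block over all 9 libraries. In chronic hypoxia against standard oxygen 29 were tested and 3 rose without a block, Serpinf1, Sema3c and Lrp1, of which Serpinf1 kept the call after rescaling; 2.69% of all genes passed there. With the sample code as a block 11 rose and 1 fell, where 18.4% of all genes passed, and with rescaling added 6 rose and 1 fell, against 11.5%. Without code Z 13 rose and 2 fell, against 21.1%. Between chronic and acute hypoxia 30 were tested and Serpinf1 passed without a block (0.695% of all genes). With the block 11 were higher and 3 lower (15.5% of all genes), with rescaling added 8 and 3 (9.79%), and without code Z 11 and 3 of 29 tested (16.3%). The median log2 fold change over the lists was 0.10, 0.39 and 0.27 in the 3 comparisons, against 0.01, 0.16 and 0.14 for all genes.

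Among the anti-angiogenic secreted factors, 4 of 15 were tested in each comparison. Pf4, Timp2 and Tnfsf15 were tested in every comparison, Cxcl10 only in acute hypoxia against standard oxygen and Serpinf1 only in the chronic comparisons. Tnfsf15 was at 0.33, 0.31 and 0.409 times its standard level in acute hypoxia for codes X, Y and Z. It did not pass there on the 6 libraries, with or without the block. Without code Z it passed as higher in chronic than in acute hypoxia. Pf4 was at 2.53, 0.536 and 2.24 TPM in standard oxygen and 1.93, 2.67 and 0 TPM in the acute group. In chronic hypoxia it was at 25.4, 27.3 and 1.65 TPM, the last in the code Z library. Pf4 was called higher in both chronic comparisons with the code block and without the code Z libraries, and in neither without a block. With rescaling added to the block it passed against acute hypoxia only. Serpinf1, which encodes pigment epithelium-derived factor, was at 1.29, 0.329 and 1.46 TPM in standard oxygen, at 0.603, 0.331 and 0.298 TPM in the acute group and at 31.7, 22.5 and 16.9 TPM in chronic hypoxia. All 3 chronic libraries were far above the other 6. A chronic group wholly above held for 24.2% of genes tested against standard oxygen and 22.3% against acute hypoxia. Without code Z its differences were 3.55 and 4.25, and with all libraries it rose by 3.61 (SE 0.317, adjusted p = 0.0077 in limma) against standard oxygen and by 4.09 (SE 0.243, adjusted p = 0.00435) against acute hypoxia. The standard oxygen mean of Serpinf1, 1.03 TPM, just met the filter, and its acute mean, 0.411 TPM, did not. Against acute hypoxia it therefore entered the test through its chronic libraries, so its passing the filter there carries no information.

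Of the adrenomedullin family and its receptors, Calcrl, the receptor that binds adrenomedullin together with a RAMP protein, was at 17.5, 39.8 and 20.5 TPM in standard oxygen, 13.3, 15.9 and 28.3 TPM in the acute group and 19.7, 20.3 and 58.5 TPM in chronic hypoxia. Its code Z library was the highest in each group. No test passed without a block, and with it Calcrl was higher in chronic than in acute hypoxia (0.63, SE 0.148, adjusted p = 0.0471), a call not kept after rescaling (adjusted p = 0.11) or without the code Z libraries (0.0671). Ramp1 lay between 0.44 and 1.55 TPM, while Ramp2, the partner that makes Calcrl an adrenomedullin receptor, and Adm2 were listed at 0 in all 9 libraries. Ramp3 was at 0.221 TPM or less. Vegfd and Flt4, the remaining VEGF family genes, reached at most 0.62 and 0.0818 TPM.

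Among the class 3 semaphorins and plexins, the ligands and receptors that share neuropilins with VEGF, 6 of 12 were tested in chronic hypoxia. Sema3c rose, from 5.29, 4.1 and 5.69 TPM in standard oxygen to 12.4, 11.6 and 8.74 TPM (0.98, SE 0.182, adjusted p = 0.0493 in limma, and 0.012 with the code block). Acute libraries were between, at 8.32, 10.1 and 6.76 TPM. Between chronic and acute hypoxia, with the code block, Plxna1 (1.13, SE 0.0922, adjusted p = 0.00802) and Plxnd1 (0.62, adjusted p = 0.0129) were higher and Sema3e was lower (-0.50, adjusted p = 0.0275). Without code Z, Plxna1 (1.05, adjusted p = 0.00464) and Plxnd1 (0.65, adjusted p = 0.00974) kept their calls and Sema3e did not (-0.43, adjusted p = 0.0507). Plxna1, a neuropilin partner, was also low in the code Z libraries, with 2.87, 1.57 and 5.26 TPM there in the standard, acute and chronic groups and 64.6 to 144 TPM in the other 6.

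In the thrombospondin family and its receptors 8 of 12 were tested. Lrp1, an endocytic receptor that clears thrombospondin 1, rose in chronic hypoxia from 261, 303 and 222 TPM to 459, 494 and 411 TPM (0.80, SE 0.143, adjusted p = 0.0444 in limma, not kept after rescaling). Cd36, the scavenger receptor through which thrombospondin 1 acts on endothelial cells, was at 3337 ± 1466 TPM in standard oxygen, 3541 ± 1463 in the acute group and 2118 ± 926 in chronic hypoxia (SD, n = 3). Its code Z library was the lowest of each group, at 1644, 1852 and 1057 TPM. Against standard oxygen the chronic level was 0.657, 0.609 and 0.643 times for codes X, Y and Z. Cd36 was called lower there with the code block, with rescaling added and without code Z. With the code block it was lower in chronic than in acute hypoxia by 0.76, a log2 fold change of -0.76 (SE 0.0798, adjusted p = 0.0122), and Itgav was lower as well (-0.59, adjusted p = 0.0199). In the same fit Itgb1 (0.71), Sdc4 (0.67) and Itgb5 (0.42) were higher, with adjusted p of 0.0185, 0.0122 and 0.0351. The Itgb5 call was lost with rescaling added (adjusted p = 0.111) and without code Z (0.108). In acute hypoxia, without code Z, Sdc4 (0.62, adjusted p = 0.0389) and Itgav (0.56, adjusted p = 0.0283) rose.

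Of the 23 other pro-angiogenic secreted factors, 9 were tested against standard oxygen and none passed without a block. With it, Angptl4, which encodes a secreted inhibitor of lipoprotein lipase, and Ang, which encodes the ribonuclease angiogenin, rose in chronic hypoxia. Angptl4 was at 2.55 ± 0.729 TPM in the standard group, 8.04 ± 1.78 in the acute and 7.89 ± 3.79 in the chronic group (SD, n = 3), with a chronic log2 fold change of 1.26 (adjusted p = 0.091 without and 0.0168 with the block) and an acute one of 1.35 (adjusted p = 0.143 and 0.118). Without code Z the acute change was 1.68 (adjusted p = 0.011), and Angptl4 was then lower in chronic than in acute hypoxia (-0.59, adjusted p = 0.0325). With all libraries that last difference was -0.08, and the chronic to acute ratio was 0.602 and 0.656 for codes X and Y and 2.05 for Z. Ang was at 10.4 ± 0.629 TPM in standard oxygen and 23.7 ± 9.12 in chronic hypoxia (1.04, adjusted p = 0.0399 with the block, 0.072 with rescaling added). Without code Z its change was 1.37 (adjusted p = 0.0044). Pdgfb was higher in chronic than in acute hypoxia by 0.52 with the block (adjusted p = 0.0189). Ang also passed as higher there, at 1.78, 1.92 and 1.81 times its acute level for codes X, Y and Z. Both genes kept the call with rescaling added and without code Z.

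**Figure D4:**
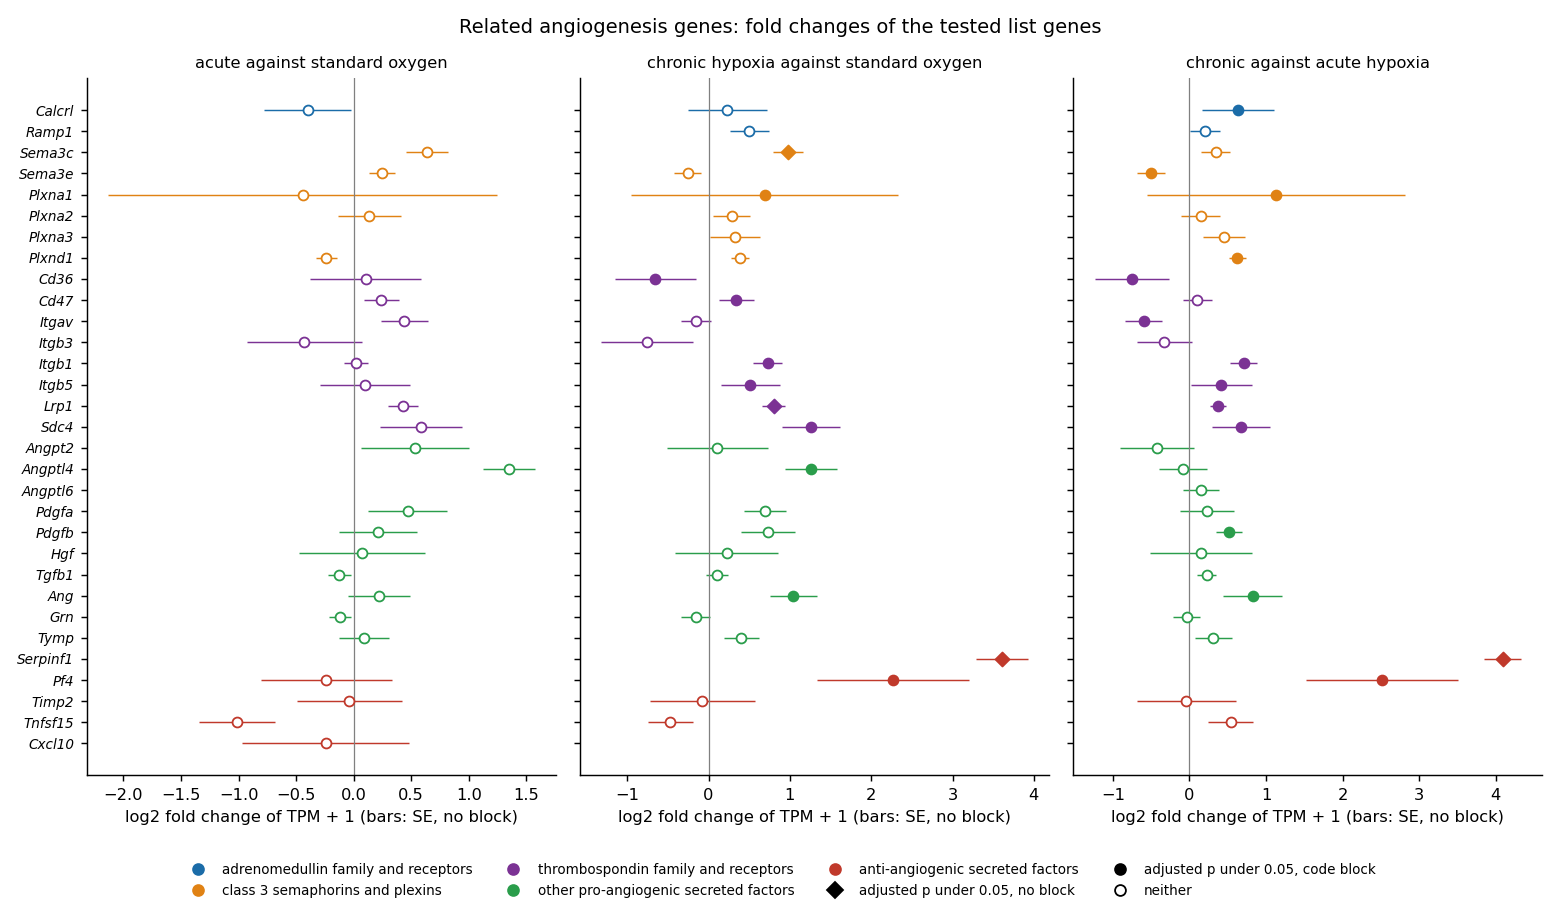
Log2 fold changes on the log2(TPM + 1) scale of the related list genes that were tested, by comparison and coloured by list, with bars for the SE without a block; diamonds passed without a block and filled circles with the sample code as a block. Serpinf1 stands farthest to the right in both chronic comparisons, at 3.61 and 4.09, and no gene is filled for acute hypoxia.

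Genes whose levels over the 9 libraries were most like each member were found by Pearson's r of log2(TPM + 1) among 7107 genes with a mean of at least 10 TPM. These r values describe libraries that share codes and conditions, and no p is given. For Vegfa they were Plaur (r = 0.968), Prr12 (0.968) and Sqle (0.966), and for Flt1 Eftud2 (0.984), Taok2 (0.981) and Naip5 (0.980). Nrp1 had the closest matches, Gna12 (0.997), Sgsh (0.996) and Hpse (0.990), and the genes near Vegfb included Lipa (0.974) and Nceh1 (0.968). Adm was nearest to Ube2d2a (0.957), Tmem189 (0.955) and Tec (0.945), and Nrp2 to Snx8 (0.974), Wls (0.961) and Pip5k1c (0.960). Thbs1 had the weakest matches, Jag1 (0.875), Aco1 (0.856) and Fam110a (0.838).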

How the data were processed

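Per the labels' protocols, total RNA was made into Illumina TruSeq mRNA libraries and read as 75-base paired ends; per the submitters' processing notes, FastQC, STAR and featureCounts were used with GRCm38, and versions and annotation are not given in the sources used here. The authors deposited TPM per gene in 3 tables, 1 per pair of groups; each sample had identical values in both tables that held it. Symbols were matched for 34582 of 34866 genes. The members and gene lists were chosen with earlier results of these data known.

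Each comparison was fitted on its 6 libraries with limma 3.58.1 in R 4.3.3 (lmFit, eBayes with trend, two-sided) on log2(TPM + 1), over genes with a mean of at least 1 TPM, and called at a Benjamini-Hochberg adjusted p under 0.05. The fit without a block was run on simulated data with independent noise in each library. That simulation held no deviations shared by code and did not cover the code block or the fits without code Z, so it cannot speak for them. Counts are not held in the files, so no count test was run and depth is unknown.

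Deviations from the group means correlated at 0.378 to 0.633 in all 9 pairs of libraries that shared a sample code. The main fit has no block and so leaves this pairing out. The fit with the code as a block, which uses the pairing, is an alternative and is given where it changes a call. The pairing comes from the digits in the sample descriptions, whose meaning is not stated. Other settings tried were pseudocounts of 0.1 and 5, no filter or a mean of 5 TPM, median-of-ratios rescaling, all 9 libraries in 1 fit, blocks by title number or code, leaving out each replicate, and leaving out the code Z libraries. Rescaling moved the median log2 fold change of all genes from 0.162 to -0.002 in chronic hypoxia against standard oxygen and from 0.143 to 0.000 against acute hypoxia, and the split of calls from 232 higher and 66 lower to 115 and 119, and from 61 and 16 to 33 and 48. None of the members shared 75-base stretches with another gene. Related genes were named where they passed without a block or, failing that, with the code block (the 3 highest and 3 lowest per list and comparison), otherwise as levels. One gene among those most like a member is not reported here.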

Additional observations from a re-analysis of the deposited data

Results flagged for a closer look

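Nrp1 was flagged by a rule that picks members with opposite directions in acute and chronic hypoxia in every code. The rule covers only members with a mean of at least 1 TPM over the 9 libraries. Pgf, with a mean of 0.345 TPM, was left out by this filter. It was higher in acute and lower in chronic hypoxia than in standard oxygen in every code. Within every code Nrp1 was below its standard oxygen level in acute hypoxia and above it in chronic hypoxia. The share of all genes with this joint pattern was not counted, and among the related genes Plxna1, Plxnd1, Tgfb1 and Serpinf1 showed it too. Sema3e and Cd36 showed the reverse, higher in acute and lower in chronic hypoxia in every code. For Nrp1, chronic exceeded acute hypoxia by 1.08 on the log2 scale. This difference passed in limma with the sample code as a block (adjusted p = 0.026) and not without it (adjusted p = 0.456). The test uses the libraries that set the flag, so it is not separate support for the pattern. The acute difference from standard oxygen did not pass in limma (adjusted p = 0.196 with the block). The acute and chronic differences share the standard oxygen libraries, and the part of the low Nrp1 level in the code Z libraries was not tested.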

How the results depend on the processing

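As a share of the genes tested in limma, those past the threshold for acute hypoxia were 0.0273% with no block (3 genes, and 785 at an unadjusted p under 0.05). The share was 0.191% (21 genes) after rescaling, 0.226% (25) with all 9 libraries in 1 fit, 0% with the title-number block (0 genes, 579 unadjusted), 0.71% (78) with the code block, 0.492% (54) with rescaling added, 1.84% (204) with the code block over all 9 libraries, 2.95% (319) without the code Z libraries, and 0 to 0.302% leaving out 1 replicate. For chronic hypoxia against standard oxygen, 2.69% (298) became 0.614% (120) without a filter, then in the same order of settings 6.9% (764) in 1 fit, 0.00904% (1) with the title block, 18.4% (2039), 11.5% (1270), 26.3% (2909) and 21.1% (2300), and 0.00903 to 4.74% leaving out 1. Between chronic and acute hypoxia, 0.695% (77) became 0.0358% (7) without a filter, 3.75% (415) in 1 fit, 15.5% (1724) with either block, which pair these libraries alike, 9.79% (1084), 22.1% (2450) and 16.3% (1788), and 0.00901 to 2.79% leaving out 1.

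Members past the threshold numbered 0 in acute hypoxia, 1 with the code block over 9 libraries, 2 without code Z, and 0 to 0 leaving out 1 replicate. In chronic hypoxia against standard oxygen the 1 became 0 without a filter, with all 9 libraries in 1 fit or with the title block. It became 3 with the code block alone (Adm, Vegfa and Flt1, all higher). With rescaling added to the block it was also 3, but of other genes (Vegfa and Flt1 higher, Vegfb lower). It was 4 with the code block over 9 libraries or without code Z, and 0 to 2 leaving out 1. For chronic against acute hypoxia the 0 became 1 with any block and 3 without code Z, and 0 to 0 leaving out 1. Related genes (0, 3 and 1) ranged from 0 to 3, 0 to 15 and 0 to 14.

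Directions turned for Nrp2 in chronic hypoxia against standard oxygen (-0.18 after rescaling, with or without the code block, and -0.13 to 0.18 leaving out 1 replicate), for Thbs1 there (-0.18 without code Z), for Vegfa against acute hypoxia (0.18 without code Z, -0.38 to 0.39 leaving out 1), for Vegfb there (0.0015 without code Z, -0.38 to 0.08), and for Nrp1 in acute hypoxia (-0.82 to 0.23). The causes were not tested. The numbers in the titles paired the samples only where they coincided with a code. The same-number correlation had a mean of 0.0942 and was over 0.1 in 5 of 9 pairs, all of which also share a code. The remaining pairs, of standard replicates 2 and 3 with hypoxic libraries, lay between -0.515 and -0.282. The depth limit is unknown, and 3 libraries a group, or 2, limit the precision. In a design of 3 against 3, an exact permutation test cannot go below 0.1.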
